A study of Mus musculus with 10 samples.

Results

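TGF-beta and activin signalling was described in 10 mouse genes: the ligand genes Tgfb1, Tgfb2, Tgfb3 and Inhba, the extracellular binding protein genes Fst and Ltbp2, the receptor genes Tgfbr1, Tgfbr2 and Tgfbr3, and the transducer gene Smad3. They were chosen by name as members of the pathway, with earlier results of these data known, and 10 of 10 were matched among the 19938 genes of the array. Each was represented by its probe set, a group of array probes for 1 gene, and 0 of the 10 had more than 1. The tumours were 5 papillary thyroid carcinomas (PTC), labelled TPOCreER; BrafV600E, and 5 anaplastic thyroid carcinomas (ATC), labelled TPOCreER; BrafV600E; p53 -/-. Both groups therefore carried the mutant Braf allele and a tamoxifen-inducible Cre under the promoter of thyroid peroxidase, active in thyroid follicular cells, on a mixed C57BL/6;129SvJae background. The loss of p53 and the tumour type changed together, and no normal thyroid or p53-deficient PTC was compared here. Neither the age of the mice nor the times of induction and collection are given in the sources used here.

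Ligands of the TGF-beta group are secreted as latent complexes, tied to the matrix by latent TGF-beta binding proteins and released by integrins and proteases. The active ligand joins the type II receptor Tgfbr2 to the type I receptor Tgfbr1, whose kinase phosphorylates Smad2 and Smad3, and these enter the nucleus with Smad4 and switch target genes on or off. Activin A, a dimer of the Inhba product, uses other receptors but the same Smads, and follistatin, the product of Fst, binds activin and blocks it. In thyroid epithelium the pathway is known to restrain growth and to lower thyroid differentiation genes, and in carcinomas it is known for its part in epithelial to mesenchymal transition.

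Values are log2 intensities, differences are ATC minus PTC in log2 units, and each mean carries its SD (n = 5 tumours in either group). Adjusted p-values come from limma with the Benjamini-Hochberg method over all 19938 genes, and a gene is said to have risen or fallen where its adjusted p was under 0.05. The labels call the tumours biological replicates without saying whether each came from its own animal. The p-values set each difference against the spread between these samples, and tumours of the same animal would not be independent. Levels of different probe sets are not comparable with each other, and detection above background is not given. Against the labelled tissue, the thyroglobulin gene Tg averaged 12.31 ± 0.65 in PTC against 9.54 ± 2.41 for ATC (adjusted p = 0.0583). Of 7 measured thyroid follicular markers 2 fell (Tshr and Iyd) and 0 rose. This share of 28.6% is near the 21.2% of all genes. Array medians lay between 7.25 and 7.34. On the first principal component, which held 56.8% of the variance, ATC replicate 2 (11.99) lay nearest to the PTC arrays (−36.5 to −28.8), and ATC replicate 5 had the lowest array weight (0.38).

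Of the 10 genes, 3 passed the threshold: Tgfbr1 and Ltbp2 fell in ATC and Smad3 rose. The ligand genes, Fst, Tgfbr2 and Tgfbr3 did not pass, and their tumour values overlapped between the types. The share that passed, 30%, stood beside 21.2% of all genes (11.5% higher and 9.72% lower), so with 10 genes the count is near the background. The same 3 genes were those whose groups did not overlap, against 16.9% of all genes (9.13% with ATC above and 7.74% with ATC below). The median difference of the 10 genes was 0.077, beside −0.018 over all genes, and the median absolute difference was 0.18, beside 0.14. The labels name tumours as the tissue and give no sorting of cells, and in such RNA fewer cells of a type and less RNA per cell cannot be told apart.

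**Figure D1:**
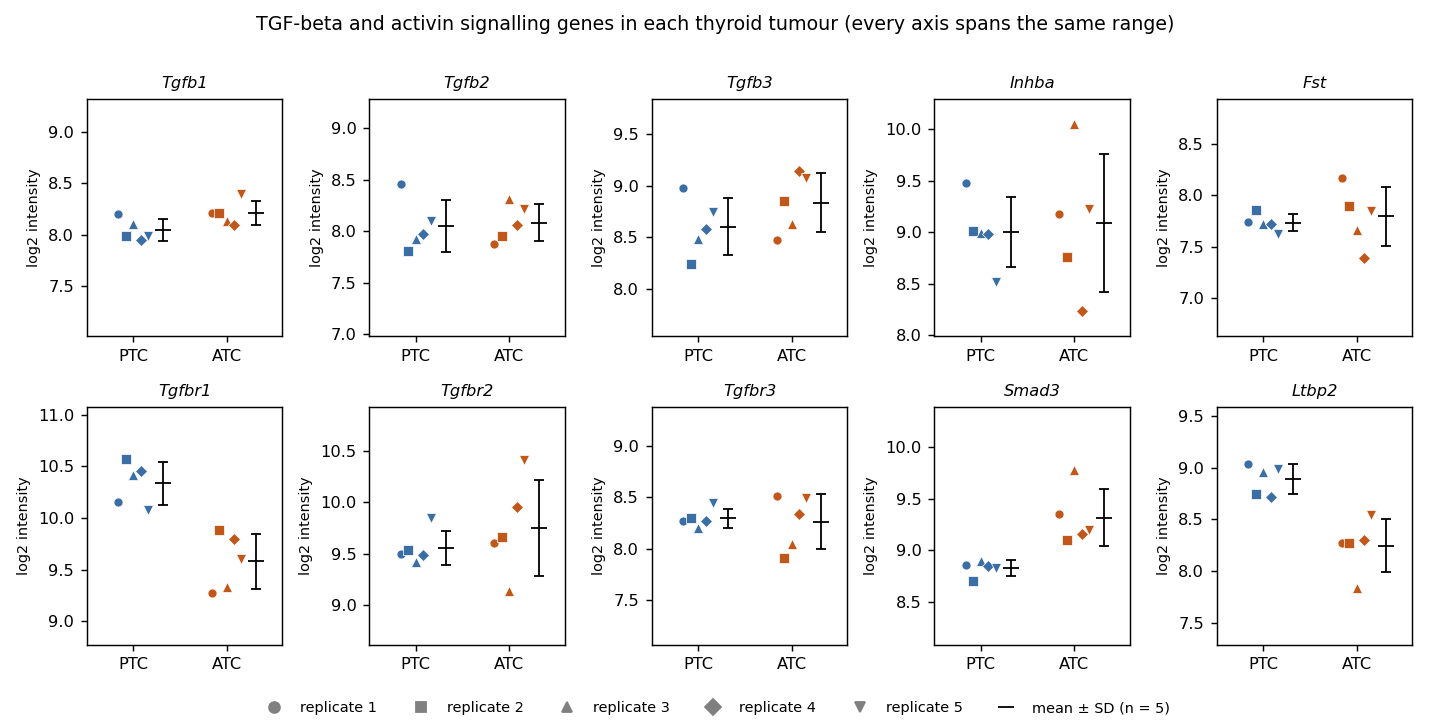
Log2 intensity of the 10 genes in each tumour, with PTC and ATC on the horizontal axis, 1 symbol per replicate, and bars for the mean ± SD (n = 5). The groups are separate for Tgfbr1, Ltbp2 and Smad3 and overlap for the other 7 genes.

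The 250 bases before the annotated start of the 3 genes that passed are shown because they are the regulatory sequence next to the genes that moved. They are from RefSeq (assembly GRCm38.p6), 5′ to 3′ on the strand of the gene, for Tgfbr1 at chr4:47352972-47353221 (plus strand), for Ltbp2 at chr12:84876492-84876741 (minus strand) and for Smad3 at chr9:63757995-63758244 (minus strand). Capitals mark matches on either strand to GGGCGG, the GC box, and to CAGAC, the core of a Smad-binding element. Reverse matches read CCGCCC and GTCTG.
Tgfbr1: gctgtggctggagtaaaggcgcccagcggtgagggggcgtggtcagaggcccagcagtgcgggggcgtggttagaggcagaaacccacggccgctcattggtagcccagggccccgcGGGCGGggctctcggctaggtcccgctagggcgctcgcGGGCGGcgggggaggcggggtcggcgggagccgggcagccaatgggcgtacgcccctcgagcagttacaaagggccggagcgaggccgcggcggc
Ltbp2: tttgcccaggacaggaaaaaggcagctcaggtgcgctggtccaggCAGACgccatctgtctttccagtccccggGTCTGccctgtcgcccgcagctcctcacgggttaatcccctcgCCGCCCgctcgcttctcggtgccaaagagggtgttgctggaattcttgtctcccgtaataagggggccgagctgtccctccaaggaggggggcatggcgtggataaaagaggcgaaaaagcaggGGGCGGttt
Smad3: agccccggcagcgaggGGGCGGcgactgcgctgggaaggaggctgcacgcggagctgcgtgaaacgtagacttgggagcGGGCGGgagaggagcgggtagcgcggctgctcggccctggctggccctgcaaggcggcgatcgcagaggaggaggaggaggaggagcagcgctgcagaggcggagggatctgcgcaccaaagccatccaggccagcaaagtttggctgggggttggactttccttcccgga
GGGCGG was found 2 times in each of the 3 windows, and 32.9% of the 27025 promoter windows of this length held it. CAGAC was found 2 times in that of Ltbp2 and 0 times in those of Tgfbr1 and Smad3, against 42.1% of all windows. The GC share was 74.8% for Tgfbr1, 61.6% for Ltbp2 and 69.2% for Smad3, with a median of 52.0% over all windows. Windows were at hand for 7 members. Among those that did not pass, Tgfb1 held GGGCGG 5 times, and Tgfb2, Inhba and Tgfbr2 held it 0 times. CAGAC was found 2 times for Tgfb2, 1 time for Tgfbr2 and 0 times for Tgfb1 and Inhba. Their GC shares were 75.2% for Tgfb1, 53.6% for Tgfb2, 43.2% for Inhba and 58.4% for Tgfbr2. Tgfbr1 has 2 starts in the table, of which the one listed first is shown, and the arrays do not tell which start was used. Matches describe the letters only and show no binding.

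Among the ligand genes, 0 of 4 passed. Tgfb1, the most widely made TGF-beta isoform and abundant in macrophages and platelets, was at 8.20, 7.99, 8.11, 7.94 and 7.99 in PTC replicates 1 to 5 and at 8.21, 8.21, 8.13, 8.09 and 8.39 in ATC replicates 1 to 5. Of the ATC tumours, 3 lay above the highest PTC tumour, and the means were 8.05 ± 0.11 and 8.21 ± 0.12. The difference was 0.16 (95% interval −0.011 to 0.33, adjusted p = 0.181). Markers of macrophages were higher in ATC beside it: 10 of 11 measured members rose, which is 90.9% beside the 21.2% of all genes that passed. Their mean log2 level ran from 9.23 to 9.75 in PTC and from 10.46 to 11.17 in ATC. Platelet and megakaryocyte markers, 0 of 4 of which passed, ran from 7.84 to 8.97 and from 8.16 to 9.22. T lymphocyte markers went the other way: 3 of 6 measured members fell (50%) and 0 rose. Their mean log2 level ran from 7.14 to 7.62 in PTC and from 6.57 to 7.21 in ATC. What part any of these cells have in the Tgfb1 value was not tested.

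Tgfb2, the isoform prominent in development and in epithelial to mesenchymal transition of the heart, ran from 7.81 to 8.46 in PTC and from 7.87 to 8.31 in ATC. All 5 ATC values lay inside the PTC range, and the difference was 0.031 (95% interval −0.25 to 0.31, adjusted p = 0.899). Tgfb3, which is known for palate fusion, ran from 8.24 to 8.98 in PTC and from 8.48 to 9.14 in ATC. ATC replicates 4 and 5 were above the highest PTC tumour, and the difference of 0.23 (95% interval −0.12 to 0.58) did not pass (adjusted p = 0.352).

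Inhba, which encodes the activin A subunit, varied more between ATC tumours than any other of the 10 genes. Its values were 9.48, 9.01, 8.996, 8.99 and 8.52 in PTC replicates 1 to 5 and 9.18, 8.76, 10.05, 8.23 and 9.23 in ATC replicates 1 to 5. ATC replicate 3 was the highest of the 10 tumours and ATC replicate 4 the lowest, so the ATC range (1.82) enclosed the PTC range (0.96). The means were 8.999 ± 0.34 and 9.09 ± 0.67, and the difference was 0.092 (95% interval −0.54 to 0.72, adjusted p = 0.863). This interval is the widest of the 10.

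Fst was at 7.74, 7.85, 7.72, 7.72 and 7.62 in PTC and at 8.17, 7.90, 7.66, 7.39 and 7.84 in ATC replicates 1 to 5. Its PTC values were close together (SD 0.083) and its ATC values lay on both sides of them (SD 0.29), with 2 ATC tumours above the PTC range and 1 below. The difference was 0.062 (95% interval −0.21 to 0.33, adjusted p = 0.780). ATC replicate 4 had the lowest value of both Fst and Inhba among the 10 tumours.

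Ltbp2 fell in ATC. The gene encodes a matrix protein of elastic fibres and microfibrils that, unlike the other latent TGF-beta binding proteins, is not known to bind latent TGF-beta. Its values were 9.04, 8.74, 8.96, 8.72 and 8.99 in PTC replicates 1 to 5 and 8.27, 8.27, 7.84, 8.30 and 8.54 in ATC replicates 1 to 5. Each ATC tumour was below each PTC tumour, with ATC replicate 3 lowest and ATC replicate 5 nearest to the PTC range. The means were 8.89 ± 0.15 and 8.24 ± 0.26, a 1.56-fold fall (difference −0.64, 95% interval −0.91 to −0.38, adjusted p = 0.00368). Of 9 fibroblast markers 33.3% passed, beside 21.2% of all genes. The 3 markers Dcn (−1.35), Lum (−2.07) and Fap (−0.91) fell, 0 rose and 6 did not pass. Those 6 differed in both directions, from −0.30 for Col3a1 to 1.17 for Pdgfra (adjusted p = 0.0848, SD 1.16 in ATC), with Col1a2 at 0.13 and Thy1 at 0.015. The mean log2 level of the 9 markers ran from 9.58 to 9.76 in PTC and from 8.90 to 9.93 in ATC, where ATC replicate 3 was the lowest and ATC replicate 5 the highest. Their part in the fall of Ltbp2 was not tested.

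The receptor genes differed from each other in what they did. Tgfbr1, the type I receptor kinase that activates Smad2 and Smad3, was at 10.16, 10.57, 10.42, 10.45 and 10.08 in PTC replicates 1 to 5 and at 9.28, 9.89, 9.33, 9.79 and 9.60 in ATC replicates 1 to 5. All 5 ATC tumours were below the lowest PTC tumour, and ATC replicates 1 and 3 were lowest. The means were 10.34 ± 0.21 and 9.58 ± 0.27, a 1.69-fold fall (difference −0.76, 95% interval −1.06 to −0.45, adjusted p = 0.003). It was the largest difference of the 10 genes. Epithelial markers were lower in ATC as well: 6 of 8 fell, which is 75% beside the 21.2% of all genes that passed. Krt8 (−0.30, adjusted p = 0.190) and Krt18 (−0.21, adjusted p = 0.583) did not pass. The mean log2 level of the 8 markers ran from 10.51 to 10.71 in PTC and from 8.16 to 9.77 in ATC. Among ATC tumours, that level was lowest in replicates 1 (8.16) and 3 (8.32) and highest in replicate 2 (9.77), as was Tgfbr1. On the first principal component of all genes, ATC replicates 1 (45.2) and 3 (46.6) also lay farthest from the PTC arrays and ATC replicate 2 (11.99) nearest. The part of the epithelial markers in the fall of Tgfbr1 was not tested.

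Tgfbr2, the type II receptor that binds the ligand first, was at 9.50, 9.54, 9.42, 9.49 and 9.85 in PTC replicates 1 to 5 and at 9.60, 9.66, 9.14, 9.95 and 10.41 in ATC replicates 1 to 5. ATC tumours lay on both sides of the PTC range, 2 above and 1 below, with an SD of 0.47 against 0.17. The difference was 0.19 (95% interval −0.23 to 0.62, adjusted p = 0.544). It was 0.029 without ATC replicate 5 (adjusted p = 0.925) and 0.35 without ATC replicate 3 (adjusted p = 0.168). Tgfbr3, the co-receptor betaglycan, which presents Tgfb2 to the receptors and binds inhibin, ran from 8.20 to 8.45 in PTC and from 7.92 to 8.52 in ATC. Its ATC tumours also lay on both sides, 2 above and 2 below, and the difference was −0.035 (95% interval −0.30 to 0.22, adjusted p = 0.874).

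Smad3, the receptor-activated transcription factor that carries the signal to DNA, rose in ATC. It was at 8.86, 8.70, 8.90, 8.85 and 8.83 in PTC replicates 1 to 5 and at 9.36, 9.10, 9.78, 9.16 and 9.20 in ATC replicates 1 to 5. Each ATC tumour was above each PTC tumour, and ATC replicate 3 was highest. The means were 8.83 ± 0.076 and 9.32 ± 0.27, a 1.41-fold rise (difference 0.49, 95% interval 0.23 to 0.75, adjusted p = 0.0128). The difference was 0.38 without ATC replicate 3 (adjusted p = 0.00669). A transcript level does not show whether Smad3 was phosphorylated.

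**Figure D2:**
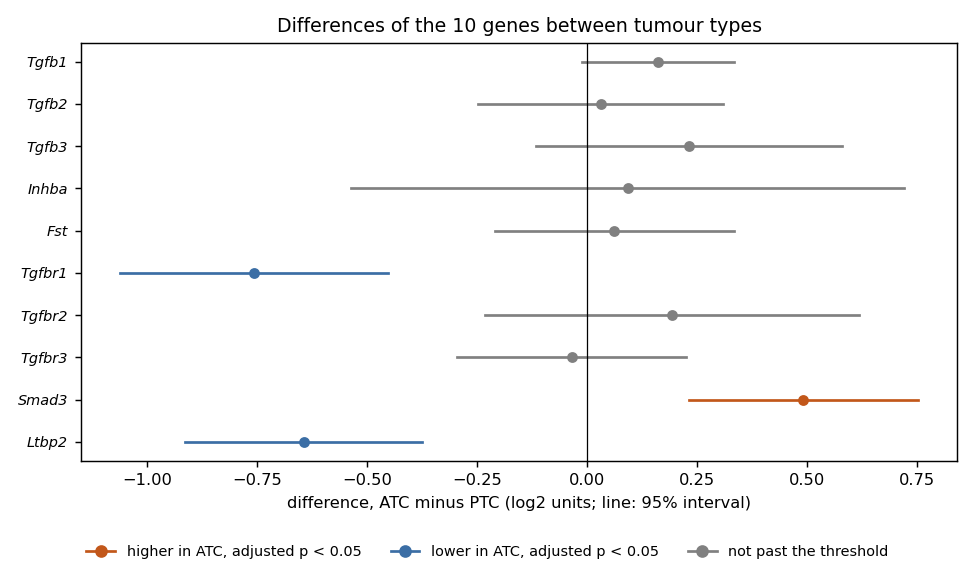
Difference ATC minus PTC in log2 units for each of the 10 genes, with points for the estimate and lines for the 95% interval of the limma fit. Colours mark adjusted p under 0.05, which Tgfbr1 (−0.76), Ltbp2 (−0.64) and Smad3 (0.49) reached.

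The 10 genes varied more between ATC than between PTC tumours. The SD was larger in ATC for 9 of 10, with Tgfb2 the exception, against 68.6% of all genes, and the median SD was 0.16 in PTC and 0.27 in ATC (0.13 and 0.17 over all genes). ATC replicate 3 held the highest value of the 10 tumours for Inhba and Smad3 and the lowest for Ltbp2 and Tgfbr2. ATC replicate 5 held the highest value for Tgfb1 and Tgfbr2. ATC replicate 1 was highest for Fst and Tgfbr3 and lowest for Tgfbr1, ATC replicate 4 was highest for Tgfb3 and lowest for Fst and Inhba, and ATC replicate 2 was lowest for Tgfbr3. Differences in spread were not tested.

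Other genes of the pathway were read from 5 lists, also chosen with earlier results of these data known. They held 65 genes, 64 of them measured. Of these, 7 rose, 10 fell and 47 did not pass, which is 26.6% passing beside the 21.2% of all genes given above, with a median difference of −0.016. Differences of at least 1 log2 unit were found in 4 of the 64, of which 3 were latency and activation genes and 1 a target gene, a share of 6.25% beside 4.54% of all genes.

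Genes that hold TGF-beta latent or activate it moved in both directions, with 2 of 11 rising, 3 falling and 6 not passing (median difference −0.062). Of this short list, chosen with earlier results of these data known, 45.5% passed, beside 21.2% of all genes. Ltbp1, whose product binds latent TGF-beta covalently and tethers it to the matrix, was at 8.73, 7.99, 8.28, 9.12 and 7.92 in PTC and at 10.44, 10.09, 11.02, 10.11 and 10.28 in ATC replicates 1 to 5. The lowest ATC tumour exceeded the highest PTC tumour. The rise from 8.41 ± 0.51 to 10.39 ± 0.38 was 3.94-fold (difference 1.98, 95% interval 1.44 to 2.52, adjusted p = 0.000374). Ltbp3, a second binding protein of latent TGF-beta, fell with separate groups from 9.17 ± 0.31 to 8.48 ± 0.16 (difference −0.69, adjusted p = 0.00532). In this family Ltbp1 therefore rose, Ltbp2 and Ltbp3 fell, and Ltbp4 did not pass (difference −0.22, adjusted p = 0.418, overlapping groups).

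Itgb6 and Itgb8 encode the integrin chains that pair with the alpha v chain and release active TGF-beta from its latent complex. Itgb6, an epithelial gene, was at 10.06, 9.87, 9.90, 9.80 and 9.57 in PTC and at 6.03, 8.57, 5.86, 7.58 and 7.26 in ATC replicates 1 to 5. The ATC tumours were all below the PTC tumours but spread over 2.70 log2 units. The fall from 9.84 ± 0.18 to 7.06 ± 1.13 was 6.88-fold (difference −2.78, 95% interval −3.73 to −1.83, adjusted p = 0.0012). Itgb8 fell 2.03-fold, also with separate groups (8.73 ± 0.39 to 7.71 ± 0.52, adjusted p = 0.0138). The epithelial marker level given above was lowest in ATC replicates 1 and 3, as were Itgb6 and Itgb8. These 2 tumours also lay farthest from the PTC arrays on the first principal component. The part of the epithelial markers in the fall of Itgb6 and Itgb8 was not tested.

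Nrros, which presents latent TGF-beta on macrophages and microglia, rose from 8.78 ± 0.12 to 9.26 ± 0.24 (difference 0.47, adjusted p = 0.0121), and 4 of 5 ATC tumours were above the PTC range. It was named after its value was seen, as the remaining gene of the 5 in its list that passed. The rise of the macrophage markers stands beside it, and its part was not tested. Thbs1, the thrombospondin that can activate latent TGF-beta, averaged 10.38 ± 0.29 in PTC against 10.21 ± 0.60 for ATC (difference −0.17, 95% interval −0.73 to 0.39, adjusted p = 0.698).

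**Figure D3:**
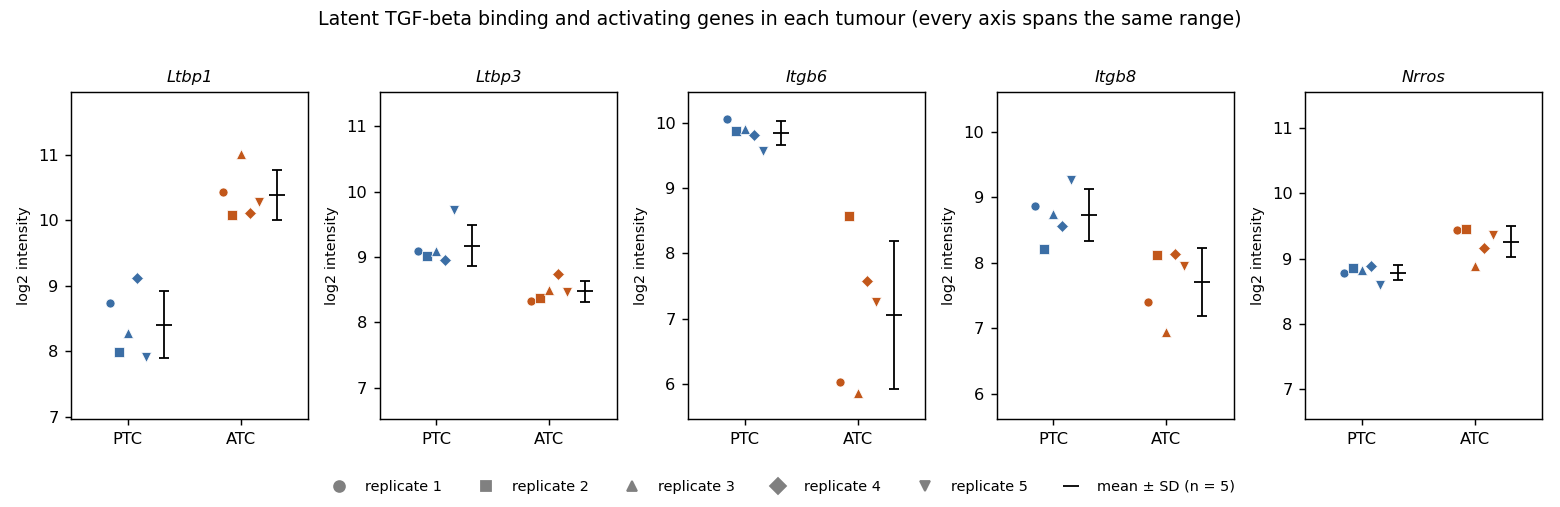
Log2 intensity of Ltbp1, Ltbp3, Itgb6, Itgb8 and Nrros in each tumour, with 1 symbol per replicate and bars for the mean ± SD (n = 5). Ltbp1 is higher in each ATC tumour, Ltbp3, Itgb6 and Itgb8 are lower, and Itgb6 spreads over 2.70 log2 units in ATC.

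**Figure D4:**
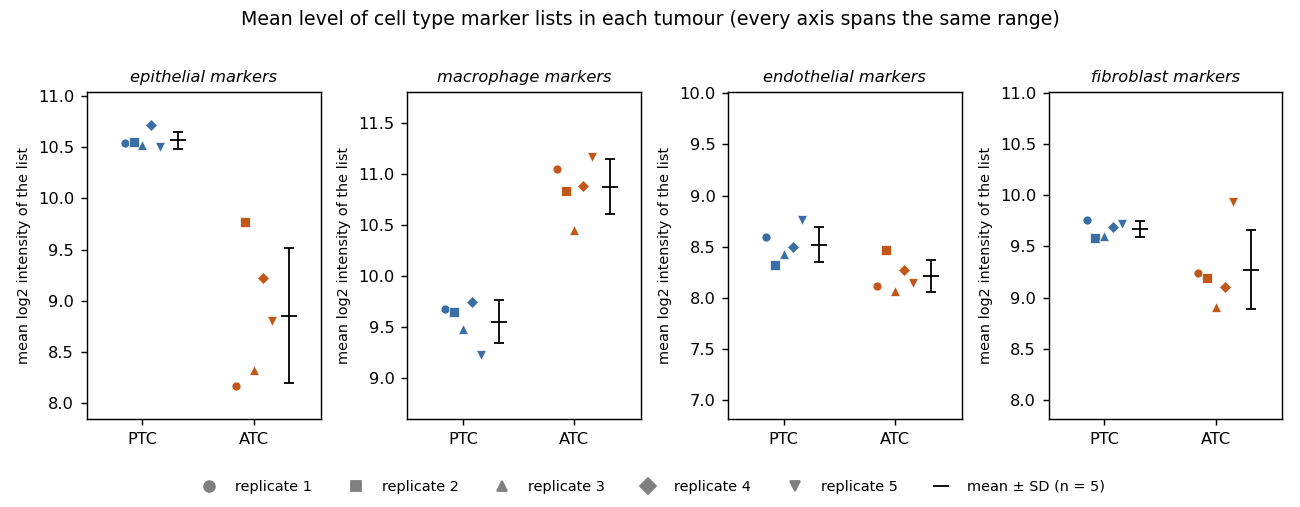
Mean log2 intensity of the measured members of 4 marker lists in each tumour, with 1 symbol per replicate and bars for the mean ± SD (n = 5). Epithelial markers are lower in ATC (8.16 to 9.77 against 10.51 to 10.71), macrophage markers higher (10.46 to 11.17 against 9.23 to 9.75), and endothelial and fibroblast markers overlap.

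Among activin-type ligands and antagonists, 1 of 11 rose, 1 fell and 9 did not pass (median difference −0.053). That is 18.2% passing, near the 21.2% of all genes. Inhbb, which encodes the activin B subunit, was at 8.07, 8.51, 8.31, 8.32 and 8.26 in PTC and at 7.62, 7.83, 7.86, 7.58 and 7.43 in ATC replicates 1 to 5. The groups were separate, and the fall from 8.29 ± 0.16 to 7.66 ± 0.18 was 1.55-fold (difference −0.63, 95% interval −0.86 to −0.41, adjusted p = 0.00155). The other activin gene, Inhba, did not pass, as given above, and whether the 2 differences differ from each other was not tested. Gdf11, a ligand of the activin receptors, rose by 0.34 (6.91 ± 0.18 to 7.25 ± 0.16, adjusted p = 0.0391), with 4 of 5 ATC tumours above the PTC range. Leaving out ATC replicate 1, 3 or 5, or PTC replicate 1, 3 or 4, ended the call, with adjusted p from 0.0614 to 0.0964 at differences of 0.29 to 0.36, as did testing all probe sets (0.34, adjusted p = 0.0599). The follistatin-like antagonist gene Fstl3 differed by −0.063 (95% interval −0.29 to 0.16, adjusted p = 0.727).

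Of 7 other receptor and co-receptor genes, 2 fell, 0 rose and 5 did not pass (median difference −0.22). With so few genes the 28.6% that passed is near the 21.2% of all genes. Acvrl1, a type I receptor of endothelium that binds BMP9 and TGF-beta, fell from 7.92 ± 0.12 to 7.55 ± 0.098 (difference −0.37, adjusted p = 0.00579). Of 8 endothelial markers 2 fell, Pecam1 (−0.40, adjusted p = 0.049998) and Tek (−0.67, adjusted p = 0.016), and 0 rose. The 25% of these markers that passed is near the 21.2% of all genes. The 6 that did not pass ran from −0.67 for Kdr to 0.082 for Cldn5, with Cdh5 at 0.022. The mean log2 level of the 8 markers ran from 8.32 to 8.76 in PTC and from 8.07 to 8.46 in ATC. Their part was not tested. Acvr1b, the type I receptor of activin, fell by 0.30 with separate groups (7.76 ± 0.14 to 7.46 ± 0.087, adjusted p = 0.021), and this call ended without PTC replicate 3 (−0.29, adjusted p = 0.0546). The type II activin receptor gene Acvr2a differed by −0.10 (95% interval −0.31 to 0.10, adjusted p = 0.503).

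Of 17 genes for Smads and their regulators, 1 rose, 2 fell and 14 did not pass (median difference 0.12). This share of 17.6% is near the 21.2% of all genes. Smad2, the partner of Smad3 at the receptor, differed by 0.11 (95% interval −0.16 to 0.38, adjusted p = 0.590), and the shared Smad4 by 0.19 (−0.020 to 0.41, adjusted p = 0.196). Without ATC replicate 3 these differences were 0.0033 for Smad2 and 0.11 for Smad4. Smad7, the inhibitory Smad that the pathway itself induces, averaged 7.44 ± 0.17 in PTC against 7.58 ± 0.17 for ATC (difference 0.14, 95% interval −0.091 to 0.37, adjusted p = 0.404). Skil and Pmepa1, feedback inhibitors that are likewise known targets, differed by 0.14 (adjusted p = 0.467) and 0.25 (adjusted p = 0.485). Without ATC replicate 3 Skil differed by 0.033, and without ATC replicate 5 Pmepa1 differed by 0.030.

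Nedd4l, a ubiquitin ligase for activated Smads, fell with separate groups from 9.21 ± 0.20 to 8.64 ± 0.24 (difference −0.57, adjusted p = 0.00857). Usp15, a deubiquitinase that protects Tgfbr1 and the receptor-activated Smads, rose with separate groups from 10.13 ± 0.091 to 10.49 ± 0.13 (difference 0.36, adjusted p = 0.00847). Ldlrad4, which keeps Smad2 and Smad3 from the receptor complex, fell by 0.34 (adjusted p = 0.0254), with 4 of 5 ATC tumours below the PTC range. Leaving out ATC replicate 1 or 2, or PTC replicate 2, 3 or 5, ended the Ldlrad4 call, with adjusted p from 0.0519 to 0.0619 at differences of −0.34 to −0.29, as did centring the arrays on their medians (−0.30, adjusted p = 0.0509).

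Textbook targets of TGF-beta moved in both directions, with 3 of 18 measured genes rising, 2 falling and 13 not passing (median difference −0.048). The share that passed, 27.8%, was near the 21.2% of all genes. Angptl4, a secreted lipase inhibitor, rose 2.95-fold from 7.87 ± 0.16 to 9.43 ± 0.41 (adjusted p = 0.000249). Cdkn2b, which encodes the cell cycle inhibitor p15, rose 1.64-fold from 8.48 ± 0.10 to 9.19 ± 0.31 (adjusted p = 0.00337). Fn1, the matrix protein fibronectin, rose by 0.55 from 12.47 ± 0.16 to 13.02 ± 0.12 (adjusted p = 0.00162) and was named after its value was seen, as the remaining gene of the 5 that passed. The groups were separate for these 3 genes.

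Postn, the matricellular protein periostin, fell 1.66-fold from 11.81 ± 0.16 to 11.08 ± 0.23 (adjusted p = 0.00149), and the transcription factor gene Bhlhe40 fell by 0.73 (adjusted p = 0.0084), both with separate groups. Ccn2, the connective tissue growth factor listed on the platform under this newer name, averaged 10.005 ± 0.53 in PTC against 9.11 ± 0.65 for ATC (difference −0.90, 95% interval −1.60 to −0.20, adjusted p = 0.0687), and passed without ATC replicate 5 (−1.05, adjusted p = 0.0488). Tgfbi, the TGF-beta induced matrix protein, differed by −0.20 (adjusted p = 0.513) and passed without ATC replicate 5 (−0.38, adjusted p = 0.048), where it was highest of the 10 tumours at 12.14. The collagen genes Col1a1, Col1a2 and Col3a1 and the contractile genes Acta2 and Tagln, also markers of fibroblasts and smooth muscle, did not pass.

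**Figure D5:**
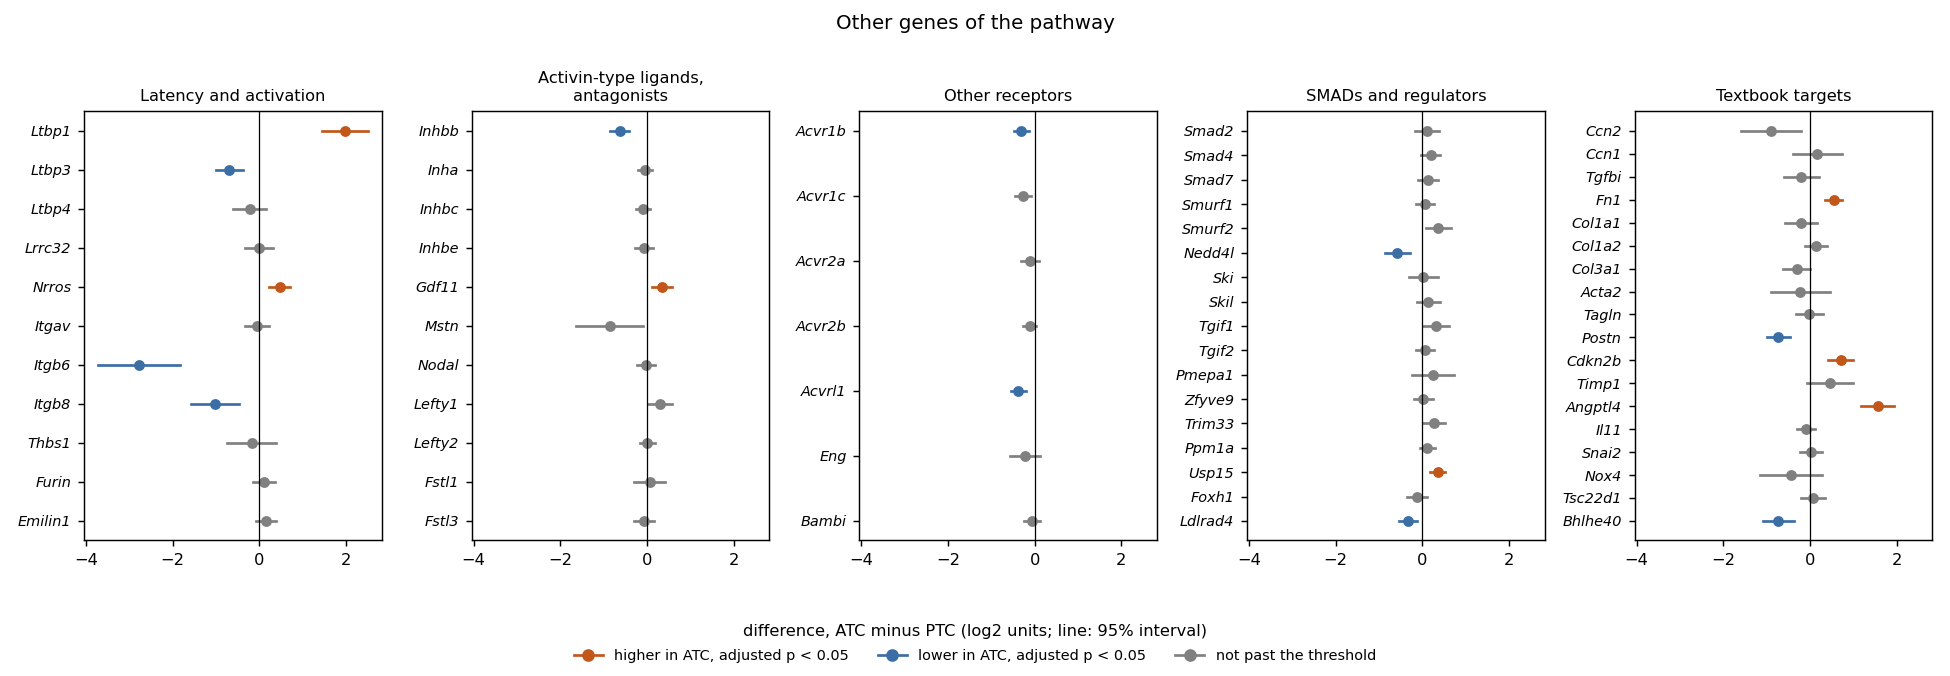
Difference ATC minus PTC in log2 units for 64 other genes of the pathway in 5 lists, with points for the estimate and lines for the 95% interval of the limma fit. Colours mark adjusted p under 0.05, which 7 genes reached upwards, Ltbp1 (1.98) with the largest rise, and 10 downwards, Itgb6 (−2.78) with the largest fall.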

How the data were processed

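Total RNA of 10 mouse thyroid tumours was labelled with biotin and measured on Affymetrix whole-transcript arrays, 1 per tumour. The deposited table holds 35556 probe sets. Per the submitters' processing notes, Affymetrix Power Tools and limma were used, with no normalization method or build named there. The deposited values run from 2.79 to 14.15 and were read as log2 intensities from that range. The scale and any centring by the authors are not stated.

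The platform annotation gave the names of probe sets: 21789 had 1 symbol, 1621 several and 12146 none here. The probe set with the highest mean stood for each of 19938 genes. The ATC minus PTC contrast was fitted over all genes with lmFit and eBayes of limma 3.58.1 (R 4.3.3), without covariates or filter, tested on simulated data first. Named genes were the 10 members, up to 4 called genes with the largest differences in each pathway list, and 15 fixed pathway genes; the rule also asked for the most similar genes of members that differed by at least 1 log2 unit, of which there were 0. The members and lists were chosen with earlier results of these data known. Alternatives were a replicate block, probe set rules, a dim gene filter, 2 normalizations, a variance model, array weights and each array left out. 1 pathway gene and some markers are not analysed here. Python 3.11.15, numpy 2.4.6, pandas 2.3.3 and matplotlib 3.10.9 were also used.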

Additional observations from a re-analysis of the deposited data

Results flagged for a closer look

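In 5 of 74 groups of 5 tumours examined, 1 tumour stood apart from the other 4, with a gap above 0.71 of the group's range; chance alone flags about 1 in 20 groups. Tgfbr2 was 9.85 in PTC replicate 5, against 9.42 to 9.54 in the other PTC tumours. Ltbp3 was 9.72 in the same tumour, against 8.95 to 9.10. Postn was 12.09 in PTC replicate 1, against 11.67 to 11.78, and Cdkn2b was 8.30 in PTC replicate 4, against 8.50 to 8.54. Fstl3 was 8.25 in ATC replicate 5, against 7.76 to 7.89 in the other ATC tumours.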

How the results depend on the processing

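Tgfbr1, Ltbp2 and Smad3 passed in the same direction in all 18 alternatives, and the other 7 members in 0 of them. For the members, the probe set rules, replicate block, variance model and dim gene filter could change only the p-values. The differences stayed the same there. Differences ran from −0.83 to −0.68 for Tgfbr1, −0.72 to −0.54 for Ltbp2 and 0.38 to 0.55 for Smad3. Counts over all genes (3253 to 4647) and other pathway genes (14 to 21) stayed within 1.5 times the reported ones. Differences near 0 changed sign: with array weights Inhba was at −0.020, and with centred arrays Tgfbr3 was at 0.0045. With an array left out, Tgfb2 ran from −0.030 to 0.13, Inhba from −0.15 to 0.31, Fst from −0.032 to 0.16, Tgfbr3 from −0.099 to 0.052 and Thbs1 from −0.38 to 0.024. Other differences that did not pass moved by over 1.5 times without changing sign. At the extremes, Tgfb3 was at 0.14 without PTC replicate 2 and Smad7 at 0.073 without ATC replicate 3. Acvr2a was at −0.170 with quantile normalization once more, −0.168 without ATC replicate 4 and −0.050 without ATC replicate 5. Fstl3 was at −0.15 without ATC replicate 5 and −0.016 without PTC replicate 5. Tgfbr2, Smad2, Smad4, Skil, Pmepa1 and Tgfbi also moved by over 1.5 times, as given above. The cause was not tested. Same-numbered tumours did not deviate together (correlations −0.086 to 0.12, and 1 of 5 numbers with its best match in the same number), so the numbers were not taken to pair them. With the replicate number as a block, 3 members, 18 other pathway genes and 3762 genes passed; Gdf11 did not (0.34, adjusted p = 0.0588) and Ccn2 did (−0.90, adjusted p = 0.0459). The number of arrays limits precision, and differences of dim genes may be compressed.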
